A study of Mus musculus with 15 samples.

Results

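The transcripts described here are 147 long noncoding RNAs (lncRNAs) of a murine pancreatic ductal adenocarcinoma (PDAC) line, HY19636. They were selected on measured values: each is typed lincRNA (long intergenic noncoding RNA) in the annotation the authors deposited, under a name that occurs once and does not begin with Snhg, and had a mean of at least 20 normalized counts over the 3 control and 3 DON libraries. They are 147 of the 1508 such lincRNA names found in the culture tables, which hold 55291 genes. A subset of 64 averaged at least 40 in the control libraries alone and would be members whatever their values after DON. Just inside the limit of 20 lay 4930558J18Rik with a mean of 20.02 and Gm9917 with 20.3, and just outside it lay D430018E03Rik with 19.2 and 2310001H17Rik with 19.3.

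RNA-seq was done on 15 samples in 5 groups of 3. HY19636 cells, labelled as p53 mutant, come from a tumor of a genetically engineered C57BL/6 mouse with Cre driven by Ptf1a, and all 5 groups share this 1 line. The cultures were treated with DON (6-diazo-5-oxo-L-norleucine, a glutamine (Gln) antagonist) at 25 µM for 24 h, kept without Gln for 24 h, or left as controls, and the tumors grew from the same cells in the pancreata of female B6J mice given DRP-104, a pro-drug of DON, or vehicle. Each value is a gene's read count after division by the size factor of its library. The tables for DON and for Gln-free cells hold the same 3 control libraries, so their changes are given side by side and share the error of those controls. The labels do not say whether the 3 cultures of a group were grown apart, and the p-values measure only the spread between these libraries.

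LncRNAs are transcripts longer than a typical small RNA that have no annotated protein. Some act in the nucleus, where Malat1 and Neat1 sit in or near speckles and paraspeckles and Xist coats the inactive X chromosome. Others act beside the gene they arise from, serve as precursors of microRNAs, or are made from the promoter of a coding gene in the opposite direction with no known role of their own.

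The culture libraries held 25.2 to 48.2 M reads and the tumor libraries 16.3 to 20.7 M. In the 9 cultures even read counts made up 69.6% to 72.7% of low counts (1 to 20 reads), and in the 6 tumors 41.9% to 46.5%. The 147 lncRNAs took 0.0564% to 0.0767% of the reads in control cells, 0.184% to 0.208% after DON, 0.104% to 0.108% without Gln and 0.169% to 0.541% in the tumors. Control library 3, the deepest, stood apart from the other control libraries for several of the lncRNAs. The changes of Xist, Mir17hg and B230354K17Rik are given with and without it. Those of Ftx, BC002059 and Gm16576, in which it was also the highest control, are given only with it. The epithelial markers Krt8, Krt18, Krt19, Epcam and Cdh1 summed to 328447 to 424061 normalized counts in control cells, 108927 to 117157 after DON and 133319 to 146613 without Gln, and the 5 islet hormone genes were at 0 in all cultures. In control, DON and Gln-free cells the 7 fibroblast markers summed to 478 to 646, 123 to 159.8 and 1063 to 1109.9 (4 to 6 of them at 0), and the 6 macrophage markers to 55.9 to 89.9, 802 to 847 and 19.6 to 38.6 (3 to 5 at 0). T cell, endothelial and acinar markers summed to at most 166 in any culture. The part of these differences in the lncRNA values was not tested.

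The genes lie on 20 chromosomes, 4 of them on chrX and 18 on chr17. In the deposited GRCm38 coordinates, 72 start within 5 kb of the start of a coding gene read in the opposite direction (a divergent partner), 9 start within 5 kb after the end of a coding gene on their own strand, and 48 overlap the span of a coding gene, while 46 have no coding neighbor of these kinds. A total of 46 share exonic bases with coding exons, 44 of them only with exons on the opposite strand. The sources used here do not state whether reads were counted by strand, so reads of such a pair could not be told apart. Of the 146 members found by identifier in GENCODE M21, 83 are still typed lincRNA, 30 antisense and 17 bidirectional promoter lncRNA, while Kantr is typed protein coding and Gpr137b-ps a transcribed pseudogene. Their median exonic length was 2091 bases, against 1119 bases for all 1508 lincRNAs of the tables.

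Promoter sequences of 3 members are shown because their changes set the main patterns apart: 2610035D17Rik was high without Gln, Kantr was high after DON, and Gm16576 was high in both and starts beside the coding gene Sun2. Each window runs 5′ to 3′ from 250 bases before to 50 bases after the RefSeq start (GRCm38.p6). Capitals mark CCAAT boxes (CCAAT) and, in 2610035D17Rik and Gm16576, GC boxes (GGGCGG), on either strand, and adjoining boxes run together.
2610035D17Rik, chr11:113201789-113202088, minus strand: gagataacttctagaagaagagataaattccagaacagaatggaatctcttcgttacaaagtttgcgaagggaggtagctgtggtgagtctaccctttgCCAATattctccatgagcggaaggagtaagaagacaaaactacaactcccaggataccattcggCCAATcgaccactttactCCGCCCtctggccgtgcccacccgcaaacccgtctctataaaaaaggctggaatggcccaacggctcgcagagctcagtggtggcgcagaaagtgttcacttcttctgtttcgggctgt
Kantr, chrX:152327444-152327743, minus strand: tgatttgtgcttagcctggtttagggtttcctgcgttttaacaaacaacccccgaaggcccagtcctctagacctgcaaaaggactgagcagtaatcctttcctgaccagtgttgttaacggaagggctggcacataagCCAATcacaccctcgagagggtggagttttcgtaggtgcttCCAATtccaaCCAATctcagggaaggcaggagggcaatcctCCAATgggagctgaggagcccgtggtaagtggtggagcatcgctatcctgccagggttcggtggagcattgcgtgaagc
Gm16576, chr15:79742448-79742747, plus strand: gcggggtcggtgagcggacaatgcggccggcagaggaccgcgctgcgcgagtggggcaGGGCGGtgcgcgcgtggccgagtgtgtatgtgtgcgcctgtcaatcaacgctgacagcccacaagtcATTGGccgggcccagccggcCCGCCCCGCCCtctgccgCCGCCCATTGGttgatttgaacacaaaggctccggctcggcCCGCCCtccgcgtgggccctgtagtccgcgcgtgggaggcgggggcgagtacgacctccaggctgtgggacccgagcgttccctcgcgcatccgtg

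RefSeq windows were found by symbol for 98 of the 147 members, and 82 of these windows begin at a start within 500 bases of the deposited one. Among these 82, CCAAT was present in 35 (42.7%, against 37.4% of all 32851 RefSeq windows) and GGGCGG in 50 (60.98% against 35.7%). The C/EBP-ATF composite TGATGNAA, bound by ATF4 with a C/EBP partner, was in 2 (2.44% against 3.97%), the AP-1 element TGANTCA in 3 (3.66% against 7.81%), the E-box CACGTG in 9 (11.0% against 7.15%) and the antioxidant response core TGACNNNGC in 11 (13.4% against 12.4%). The 32851 windows were not limited to genes expressed in these cells, while the members were selected on expression. The 2 sets are thus not alike, and the differences in share were not tested. These letter matches are a description of the windows and no measure of binding.

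Mir17hg (chr14:115042879-115046727) is the primary transcript of the miR-17-92 cluster, growth-promoting microRNAs. The members of the cluster are shown because the host transcript rose without Gln while the mature microRNAs were not measured by these libraries. The span holds 6 RefSeq hairpins, and capitals mark the seed (bases 2 to 8) of 1 mature strand from each.
miR-17-5p: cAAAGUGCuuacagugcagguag
miR-20a-5p: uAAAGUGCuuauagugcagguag
miR-18a-5p: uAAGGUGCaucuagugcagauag
miR-19a-3p: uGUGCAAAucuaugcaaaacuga
miR-19b-3p: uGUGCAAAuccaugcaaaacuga
miR-92a-3p: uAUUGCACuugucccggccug
miR-17-5p and miR-20a-5p share the seed AAAGUGC, miR-19a-3p and miR-19b-3p share GUGCAAA, and miR-18a-5p and miR-92a-3p each have a seed of their own in this cluster.

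Named lncRNAs are given with the normalized counts of libraries 1, 2 and 3 of a culture group on 1 scale common to the 9 cultures, then the log2 change ± SE. Changes against control were fitted within each deposited table with limma on log2(value + 1). DON values helped to select the members, so the change after DON is a description with no test. The control libraries took part in the selection too. The change without Gln carries a limma p-value adjusted by Benjamini-Hochberg over all genes tested. The difference between DON and Gln-free cells carries one only for the 64 members that do not depend on DON values, and is a description for the others.

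Across the whole group, 141 of the 147 lncRNAs passed the filter on low values in the Gln-free comparison (mean of at least 10). Of these, 49 rose (34.8%, against 34.5% of the 13390 genes tested) and 28 fell (19.9% against 34.9%). The share that rose was thus close to that of all genes. Of the 64 members with a control mean of at least 40, 21 rose (32.8%) and 15 fell (23.4%). A further limit is that 6 tested members had a control mean under 10 and so passed only through the Gln-free libraries, and 4 of the 49 are among them. The count of falls moved with single libraries, to 18 without control library 1 and 17 without Gln-free library 1. The median log2 change of the tested members was 0.42, with a range of -3.07 to 3.54, against 0.01 for all genes, and 0.14 for the 64. Among the 82 promoter windows, CCAAT was in 16 of the 29 of members that rose without Gln, 3 of 12 of those that fell and 16 of 41 of the rest, and GGGCGG in 16 of 29, 7 of 12 and 27 of 41. The other 4 motifs were in at most 2 of the 29, 2 of the 12 and 7 of the 41.

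Between DON and Gln-free cells, 144 members were tested and 71 were higher in DON cells (49.3%, against 33.8% of the 13383 genes tested) and 27 lower (18.8% against 35.0%). DON libraries took part in the selection, which favors members that are high after DON, so these counts are a description. Of the 64 members that do not depend on DON values, 28 were higher in DON cells (43.8%) and 19 lower (29.7%), with a median difference of 0.67 for the tested members (range -2.97 to 3.37) and 0.21 for the 64, against -0.01 for all genes. The comparison of these shares between members and all genes was not tested. After DON itself, 83 members lay above and 21 below all 3 controls, beside 35.3% and 36.6% of all 13556 genes tested. By the limma rule 84 were higher and 16 lower, beside 33.3% and 34.7% of all genes. Since the rule of selection used these libraries, nothing is read from these counts.

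**Figure D1:**
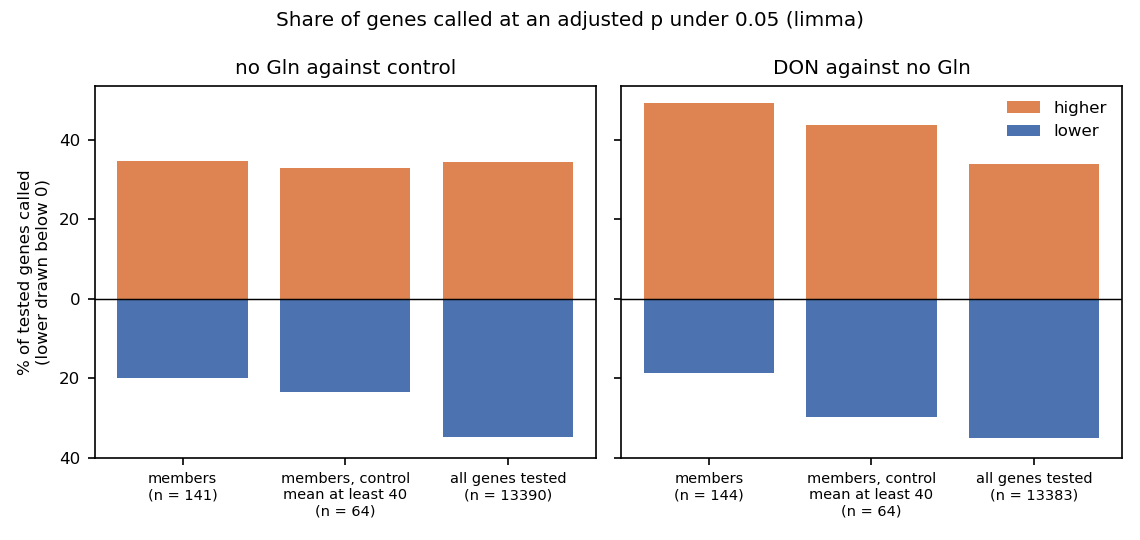
Percent of tested genes called higher (above 0) or lower (below 0) at an adjusted p under 0.05 by limma, for the members, the 64 members with a control mean of at least 40 and all genes tested. Without Gln the share of members that rose is close to that of all genes and the share that fell is smaller.

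Malat1 (chr19:5795690-5802672, minus strand), an abundant RNA of nuclear speckles, was the highest member by normalized count. Control libraries held 2921, 2609 and 3622, DON libraries 19533, 20000.2 and 22397 and Gln-free libraries 4211, 4385 and 4035. The DON libraries were far above all others, and the Gln-free libraries lay just above the controls. The log2 change was 2.76 ± 0.11 after DON and 0.50 ± 0.11 without Gln (adjusted p = 0.00154), and DON exceeded Gln-free cells by 2.29 ± 0.06 (adjusted p = 1.42e-12). Malat1 alone took 0.00786% to 0.0118% of reads in controls and 0.0661% to 0.0766% after DON.

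Neat1 (chr19:5824708-5845478, minus strand), the scaffold of paraspeckles, lies next to Malat1 on the same strand and lay on opposite sides of the controls under the 2 treatments. Its control libraries held 2499, 1828 and 2851, its DON libraries 8839, 7632 and 11148 and its Gln-free libraries 1627, 1395 and 1371. All DON values were above and all Gln-free values below the controls. The log2 change was 1.94 ± 0.15 after DON and -0.67 ± 0.14 without Gln (adjusted p = 0.00114), a difference of 2.64 ± 0.11 between the treatments (adjusted p = 7.05e-11). The coding gene Frmd8 ends 4224 bases upstream of Neat1 on the same strand and had changes of 0.05 ± 0.09 and -0.44 ± 0.09.

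**Figure D2:**
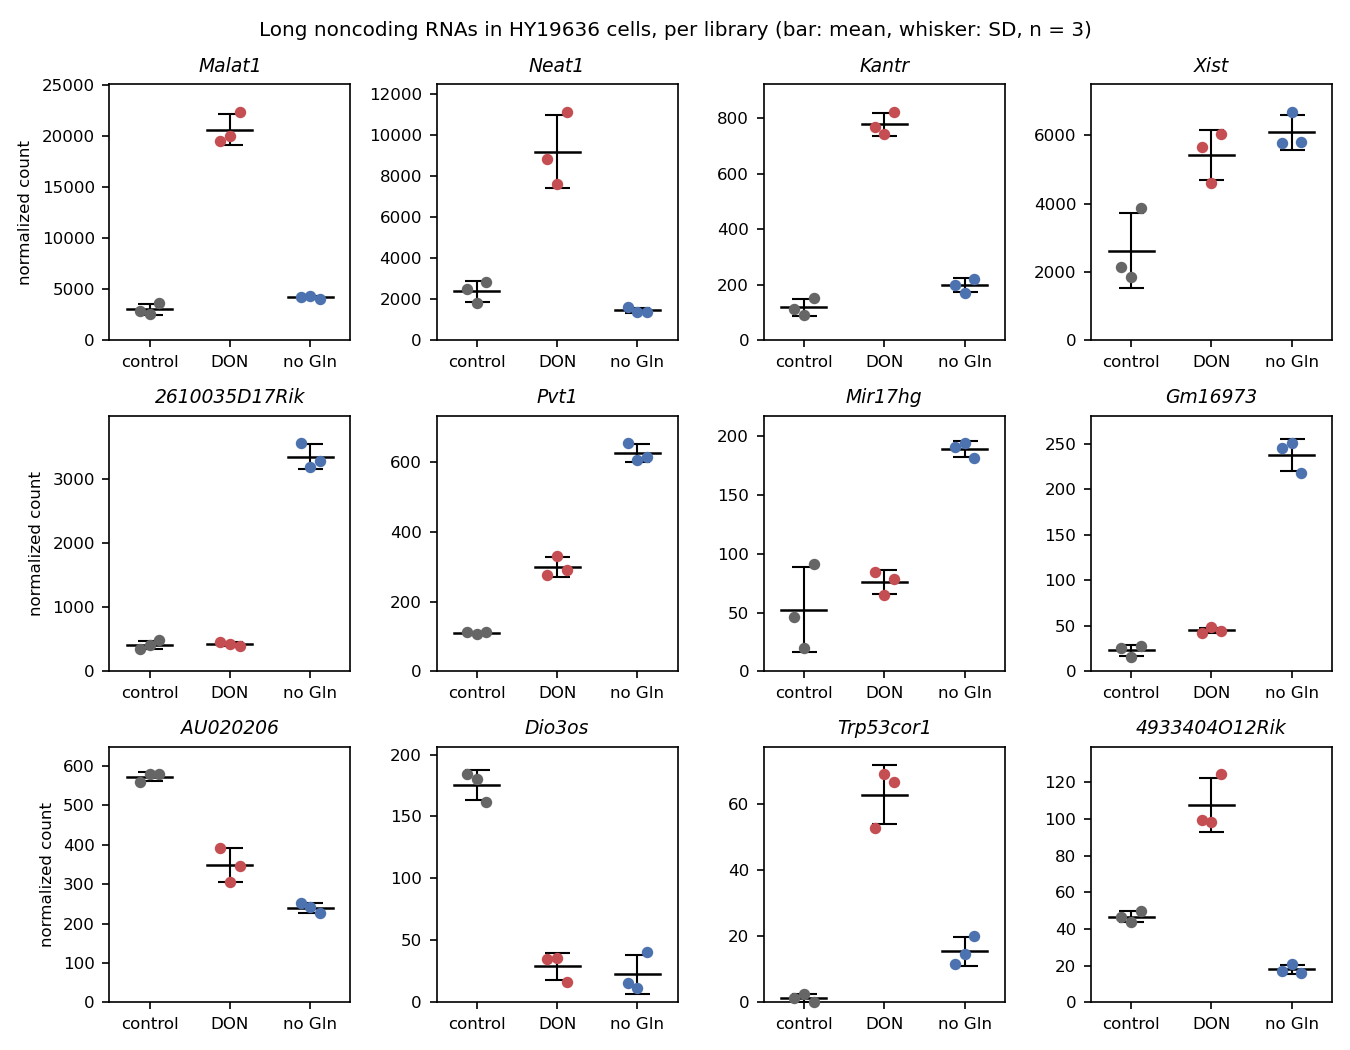
Normalized counts of 12 lncRNAs in each culture library (y axis from 0, libraries 1 to 3 from left to right, bar and whisker the mean and SD of 3) on the scale common to the 9 cultures. Malat1, Neat1, Kantr and Trp53cor1 were highest in DON cells, while 2610035D17Rik, Pvt1, Mir17hg and Gm16973 were highest in Gln-free cells.

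Xist, the RNA that silences an X chromosome in female cells, had 2147, 1847 and 3870.2 normalized counts in controls, 5644, 4613 and 6024 after DON and 5765, 6676 and 5803 without Gln. Control library 3 was well above the other controls, and all treated libraries were above it. The log2 change was 1.11 ± 0.20 after DON and 1.31 ± 0.20 without Gln (adjusted p = 8.63e-05), or 1.42 and 1.63 without control library 3. The difference between DON and Gln-free cells, -0.17 ± 0.09, did not pass the test (adjusted p = 0.0993, 95% interval -0.36 to 0.02), but did without DON library 3 (-0.25, adjusted p = 0.0180).

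Ftx and Jpx, lncRNAs of the X-inactivation center that promote Xist expression, had much lower counts. Ftx went from 72.02, 65.8 and 135 in controls to 131, 148 and 134 after DON and 268, 285 and 224 without Gln. Its Gln-free values were above all others, and its DON values overlapped control library 3. Ftx rose without Gln by 1.59 ± 0.25 (adjusted p = 9.78e-05), and DON cells were lower than Gln-free cells (-0.90 ± 0.15, adjusted p = 1.10e-04). Jpx held 46.4, 31.7 and 60.1 in controls, 115, 130.2 and 123 after DON and 44.4, 80.5 and 63.8 without Gln. Its values were thus highest after DON, and the difference between the treatments was 0.99 ± 0.24 (adjusted p = 0.00179), while the change without Gln, 0.47 ± 0.32, did not pass (adjusted p = 0.206).

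Kantr, named for its place near Kdm5c on chrX, held 115, 91.4 and 152 in controls, 766, 742 and 822 after DON and 201, 171 and 222 without Gln. The 3 groups did not overlap and DON was highest by far. The changes were 2.71 ± 0.18 after DON and 0.77 ± 0.21 without Gln (adjusted p = 0.00540), and the treatments differed by 1.97 ± 0.12 (adjusted p = 3.10e-09). Its promoter window, shown above, holds 4 CCAAT boxes.

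Trp53cor1 (lincRNA-p21, chr17:29057474-29078961), a p53 target whose start lies 12018 bases from that of Cdkn1a, was close to absent in control cells. Its normalized counts were 1.22, 2.44 and 0 in controls, 52.7, 69.2 and 66.8 after DON and 11.6, 14.6 and 20.3 without Gln. The control libraries held 3 reads in all, the DON libraries 202 and the Gln-free libraries 45, and the ratio of Gln-free to control cells after scaling was 16.6 (95% exact binomial interval 5.34 to 83.6, counting error only). This interval takes each read as an independent count and was not adjusted for the excess of even counts in the cultures, so it may be too narrow. It fell under the filter for the Gln-free comparison, and its values in DON cells, which made it a member, were above those in Gln-free cells (1.98 ± 0.33, with no test). Cdkn1a, the cell cycle inhibitor p21, named after its values were seen, changed in the other order, by 0.90 ± 0.10 after DON and 1.46 ± 0.09 without Gln.

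Pvt1 (chr15:62037986-62378096), which lies downstream of Myc and is often co-amplified with it in cancer, held 112, 106 and 113 in controls, 278, 332 and 290.5 after DON and 655, 607 and 614 without Gln. The 3 groups were tight and did not overlap, in the order control, DON, Gln-free. Pvt1 rose without Gln by 2.51 ± 0.14 (adjusted p = 6.74e-09), with a change of 1.42 ± 0.17 after DON and a difference of -1.06 ± 0.11 between the treatments (adjusted p = 7.25e-07). Myc, whose start lies 52645 bases away and which was named after its values were seen, changed by 2.49 ± 0.08 without Gln and 1.03 ± 0.09 after DON.

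Mir17hg held 46.4, 19.5 and 91.4 in controls, 84.4, 64.6 and 78.4 after DON and 191, 194 and 181 without Gln. The Gln-free libraries were above all others, and the DON libraries lay within the wide range of the controls. Mir17hg rose without Gln by 2.11 ± 0.41 (adjusted p = 4.92e-04), or 2.63 without control library 3, and was lower in DON than in Gln-free cells (-1.31 ± 0.18, adjusted p = 1.43e-05).

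Crnde, a lncRNA first described in colorectal neoplasia that starts 1676 bases from the homeobox gene Irx5, held 145, 127 and 152 in controls, 78.5, 93.8 and 111 after DON and 313, 242 and 279.5 without Gln. DON libraries were below and Gln-free libraries above the controls. The rise without Gln was 0.99 ± 0.17 (adjusted p = 1.48e-04), the change after DON -0.60 ± 0.21 and the difference -1.55 ± 0.18 (adjusted p = 2.07e-06). Irx5 changed by 0.43 ± 0.10 without Gln and -0.45 ± 0.12 after DON.

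Malat1, Neat1, Xist, Ftx, Jpx, Trp53cor1, Pvt1, Mir17hg and Crnde are the 9 members found on lists of 42 lncRNAs with a known role (nuclear and chromatin, microRNA hosts, imprinted, p53 and growth arrest, snoRNA and RNA processing hosts, conserved cytoplasmic). Of the other listed genes, 12 carry another type in the deposited annotation, 14 were absent from it under that name, 6 were lincRNAs with a mean under 20, and Mir143hg was not in the culture tables. No listed imprinted gene and no listed host of snoRNAs or of RNA processing was a member. H19, a strongly imprinted transcript, averaged 0.350 and Meg3 was at 0.

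The remaining named members are on none of these lists. The lowest of all tested members in DON relative to Gln-free cells was 2610035D17Rik (chr11:113043895-113201838), whose nearest coding start, that of Sstr2, lies 417504 bases away. Controls held 344, 405 and 483, DON libraries 458, 421 and 394 and Gln-free libraries 3556, 3182 and 3275. The DON values lay within the control range and the Gln-free values were several times higher, with a rise of 3.06 ± 0.12 (adjusted p = 7.31e-10) without Gln. The change after DON was 0.05 ± 0.15, below 0 without control library 1 or DON library 1, and the difference between the treatments -2.97 ± 0.08 (adjusted p = 1.57e-12).

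Gm16973, BC002059, Gm6712 and Gm10516 were likewise highest without Gln, but the first 3 of these were also above all controls after DON. Gm16973 held 25.6, 15.8 and 27.5 in controls, 42.2, 48.2 and 44.6 after DON and 245, 251 and 218 without Gln, a rise of 3.37 ± 0.25 without Gln (adjusted p = 1.38e-07). BC002059 held 58.6, 24.4 and 109 in controls, 204, 160.2 and 199 after DON and 399, 502 and 442 without Gln, Gm6712 held 18.3, 21.9 and 30.1, then 36.3, 44.6 and 70.1 and 202, 178 and 145, and Gm10516 held 36.6, 77.99 and 70.3, then 55.1, 27.3 and 74.3 and 226, 266 and 251. The DON values of Gm10516 overlapped its controls. The changes after DON were 0.97 ± 0.34 for Gm16973, 1.76 ± 0.39 for BC002059, 1.04 ± 0.36 for Gm6712 and -0.29 ± 0.38 for Gm10516. BC002059 rose without Gln by 3.04 ± 0.39 (adjusted p = 1.42e-05), Gm6712 by 2.88 ± 0.26 (adjusted p = 7.87e-07) and Gm10516 by 2.08 ± 0.26 (adjusted p = 1.26e-05). All 4 were lower in DON than in Gln-free cells, by log2 differences from -2.38 (Gm16973) to -1.25 (BC002059).

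Each of the 4 overlaps a coding gene in the deposited coordinates. Gm16973 shares 384 exonic bases with Mphosph8 and Gm10516 shares 336 with Rcor3, both on the opposite strand. BC002059 and Gm6712 overlap the span given for Chd1 on the same strand but share 0 exonic bases with coding exons in GENCODE M21. Without Gln, the changes of these coding genes were 0.87 ± 0.15 for Mphosph8, 1.19 ± 0.12 for Rcor3 and 1.03 ± 0.12 for Chd1. The part of shared reads in the lncRNA values was not tested.

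Several of the members highest after DON start beside a coding gene read in the opposite direction. Such a partner was no trait particular to them: median changes after DON were 0.97 for members with and 0.95 for members without a divergent partner, as a description. Gm16576, which starts 162 bases from Sun2, held 17.1, 17.1 and 39.6 in controls, 180.5, 167 and 222 after DON and 73.9, 84.6 and 90.1 without Gln. Gm4890, beside Mmaa, held 21.97, 21.9 and 31.97, then 148, 216 and 188 and 38.03, 36.6 and 34.4, and A130014A01Rik, beside Zdhhc7, held 35.4, 42.6 and 49.9, then 186, 277 and 224 and 66.6, 91.95 and 69.9. In all 3 the DON libraries were above every other library. A130014A01Rik also overlaps the span of the coding gene Gm20388 on the same strand, with 0 shared exonic bases. The changes after DON were 2.99 ± 0.32, 2.81 ± 0.26 and 2.38 ± 0.23, against 0.37 ± 0.10 for Sun2, 0.93 ± 0.14 for Mmaa and 0.28 ± 0.10 for Zdhhc7.

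1700007L15Rik starts 48 bases from Zfp148 and held 68.4, 65.8 and 40.9 in controls, 353, 263 and 235 after DON and 67.6, 48.1 and 61.8 without Gln. Only its DON libraries stood apart, and DON exceeded Gln-free cells by 2.24 ± 0.20 (adjusted p = 1.94e-07). Zfp148 was lower in DON than in Gln-free cells (-0.63 ± 0.06). Against control it was higher under both treatments, by 0.55 ± 0.15 after DON and 1.21 ± 0.16 without Gln. Gm17249, beside Polr3b, and Gm15834, beside Orc2, were near 0 in most control libraries. Both share exonic bases with a coding gene on the opposite strand, Gm17249 247 with Polr3b and Gm15834 212 with Fam126b. Gm17249 had 4 reads in the 3 controls and 213 after DON, the libraries that made it a member. Gm15834 held 0, 0 and 7.67 in controls, 70.3, 81.9 and 33.01 after DON and 15.8, 17.8 and 42.5 without Gln, and its control reads all came from library 3. It passed the filter of the Gln-free comparison only through the Gln-free libraries, and its change there, 3.54 ± 0.87, is given as a description. The highest tested member in DON relative to Gln-free cells was Gm26812, named after its values were seen, with 8.55, 7.31 and 2.56 in controls, 76.2, 91.02 and 89.95 after DON and 7.39, 5.22 and 10.1 without Gln (3.37 ± 0.36). It is a member through its DON libraries alone, so this difference carries no test.

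Falls were fewer. Without Gln 21 tested members were lower and 42 higher by at least 1 on the log2 scale, and after DON, as a description, 11 and 67. The falls given next are those of members with a mean of at least 100 over 6 libraries. Lower members with large falls are not among them, such as Gm11496, named after its values were seen (-1.79 without Gln and -2.73 after DON). Dio3os, transcribed opposite the thyroid hormone deiodinase gene Dio3, held 184, 180.3 and 162 in controls, 35.2, 35.5 and 16.5 after DON and 15.8, 11.5 and 40.5 without Gln. All treated libraries were far below the controls, with a fall of -3.07 ± 0.38 without Gln (adjusted p = 1.00e-05) and a change of -2.64 ± 0.30 after DON. Dio3, whose start lies 1000 bases away, changed by -2.15 ± 0.16 and -3.67 ± 0.21. The treatments did not differ detectably in Dio3os (0.47 ± 0.48, adjusted p = 0.400, 95% interval -0.56 to 1.50).

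AU020206 fell from 559, 580.0 and 579 in controls to 252, 241 and 226 without Gln, a change of -1.23 ± 0.12 (adjusted p = 1.60e-06), with 391, 307 and 347 after DON between the other groups. Gm13387 (-0.35 ± 0.13, adjusted p = 0.0252), Gm20467 (-0.43 ± 0.17, adjusted p = 0.0416) and Gm26782 (-0.56 ± 0.22, adjusted p = 0.0339) also fell without Gln. These smaller falls were lost when single libraries were left out. Gm20467 was lost without any 1 of the 6 libraries (adjusted p up to 0.137), Gm26782 without any but Gln-free library 2 (up to 0.115), and Gm13387 without control library 2 or 3 or Gln-free library 2 or 3 (up to 0.0797). Gm26782 shares 144 exonic bases with Tep1 on the opposite strand, and Tep1 changed by -0.96 ± 0.11 without Gln. The part of shared reads was not tested.

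Among the other members with the highest counts, Gpr137b-ps, which can share reads with its parent gene, held 1425, 1474 and 1474 in controls and 2748, 2949 and 2819.9 after DON, and its change without Gln was 0.13 ± 0.09 (adjusted p = 0.199). 4930461G14Rik rose without Gln by 1.04 ± 0.09 (adjusted p = 6.50e-07) and 1810058I24Rik fell by 0.33 (adjusted p = 0.0108, or 0.0531 without Gln-free library 3). B230354K17Rik, beside Cdc5l, did not pass the test without Gln (0.39 ± 0.18, adjusted p = 0.0668) but did without control library 3 (0.65, adjusted p = 8.57e-05) or after quantile normalization (adjusted p = 0.0363). It shares up to 981 exonic bases with Cdc5l or Spats1 on the opposite strand. 5031425E22Rik, beside Kmt2e, changed by 1.00 ± 0.12 after DON and -0.25 ± 0.13 without Gln (adjusted p = 0.0948). Per length the order of levels was another: in RPKM computed from the recovered reads, control cells held 48.00 ± 2.56 (SD, n = 3) of 4930461G14Rik, 27.02 ± 1.50 of AU020206, 18.7 ± 1.03 of 1810058I24Rik and 13.6 ± 2.91 of Malat1. After DON Malat1 led with 100.4 ± 8.18, and without Gln 4930461G14Rik led with 106 ± 6.60.

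Neat1 and Crnde went in opposite directions by less than 1 in at least 1 treatment, while 3 lowly expressed members went in opposite directions by at least 1 on the log2 scale in both treatments, with no overlap with the controls. 4933404O12Rik held 46.4, 43.9 and 49.9 in controls, 99.6, 98.3 and 125 after DON and 16.9, 20.9 and 16.2 without Gln. C230035I16Rik held 31.7, 19.5 and 23.7, then 48.1, 74.6 and 67.7 and 6.34, 10.4 and 13.2, and Gm26671 held 30.5, 17.1 and 23.02, then 69.1, 59.2 and 51.2 and 6.34, 14.6 and 10.1. In each, DON libraries were highest and Gln-free libraries lowest, and DON exceeded Gln-free cells by 2.51 ± 0.27 in 4933404O12Rik (adjusted p = 1.26e-06), and by 2.58 ± 0.38 and 2.48 ± 0.38, with no test, in the others. The fall without Gln was -1.31 ± 0.32 for 4933404O12Rik (adjusted p = 0.00267). It was -1.24 ± 0.45 for C230035I16Rik (adjusted p = 0.0264) and -1.12 ± 0.47 for Gm26671 (adjusted p = 0.0489), but both calls were lost without control library 1 (adjusted p = 0.101 and 0.163), control library 3 or Gln-free library 1, and that of Gm26671 also without Gln-free library 3.

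**Figure D3:**
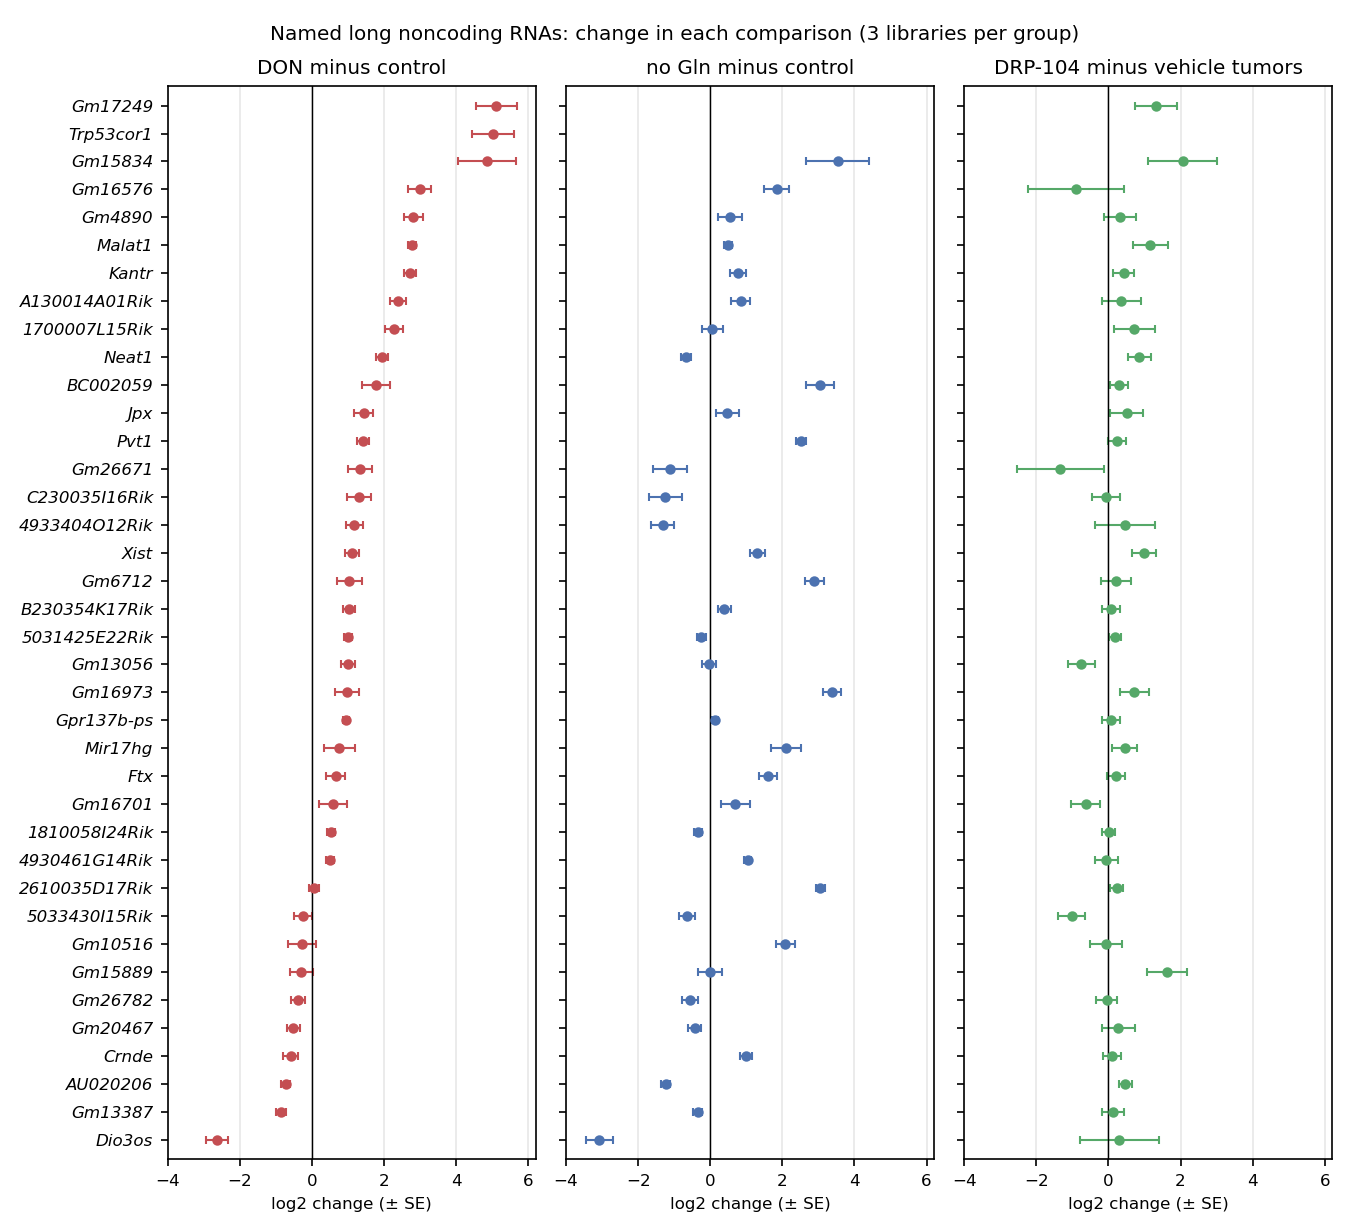
Log2 change ± SE of the 38 named lncRNAs after DON, without Gln and after DRP-104 in tumors (x axis, 3 libraries per group, ordered by the change after DON). Trp53cor1 and Gm17249 have no point without Gln and Trp53cor1 none in tumors because they fell under the filter, and the points after DON are a description of values that helped to select the lncRNAs.

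The 72 divergent members were compared with their coding partners. Both were tested in 65 pairs without Gln, with Pearson r = 0.443 and Spearman rho = 0.468 between the log2 changes across pairs. Median changes were 0.49 for the lncRNAs and 0.13 for the partners, and in 26 pairs the members of the pair differed by at least 1. Between DON and Gln-free cells r was 0.244 over 67 pairs, with medians of 0.65 and -0.13, and in 51 of the 67 pairs the lncRNA had the higher value. The lncRNAs, but not their partners, were selected partly on DON libraries, which favors higher lncRNA values in DON cells. The pairs also share libraries, and some share reads where exons overlap, so these figures are a description. Members with and without a divergent partner had median changes of 0.49 and 0.36 without Gln. The 17 typed bidirectional promoter lncRNA in GENCODE M21 included 8 that rose (50%) and 0 that fell without Gln among 16 tested. They include 3110083C13Rik, which had a control mean of 2.58 and passed the filter only through the Gln-free libraries. Of the 83 still typed lincRNA, 25 rose (31.25%) and 19 fell (23.75%) among 80. The 46 members with no coding gene over, before or opposite them included 13 that rose (29.5%) and 12 that fell (27.3%) among 44. Of all 13390 genes tested, 34.5% rose and 34.9% fell. These shares were not compared by a test.

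**Figure D4:**
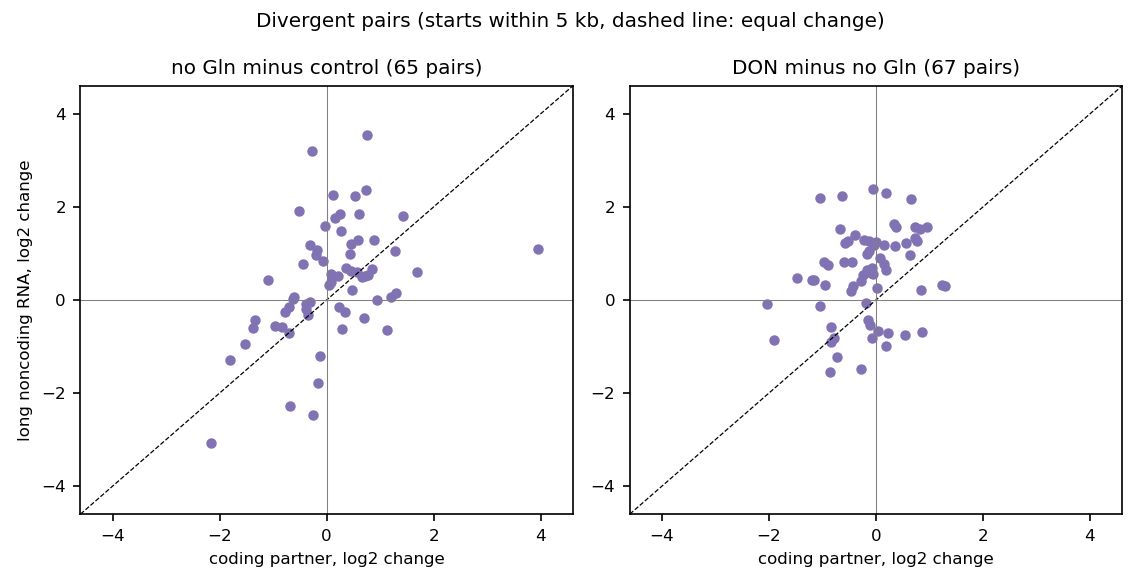
Log2 change of each lncRNA (y axis) against that of the coding gene that starts within 5 kb of it in the opposite direction (x axis), without Gln and for DON minus Gln-free cells. In 51 of the 67 pairs of the right panel the lncRNA lies above the line of equal change. The lncRNAs, but not their partners, were selected partly on DON libraries, which favors this, so the count is a description.

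In the orthotopic tumors, bulk RNA mixes PDAC and host cells, so fewer cells of a type and less RNA per cell could not be told apart. Of the 147 lncRNAs, 133 passed the filter and limma called 0 of them, as it called 0% of the 15454 genes tested. At an unadjusted p under 0.05 there were 7 members and 775 genes. The edgeR and DESeq2 tests on recovered reads called 0 of the 133 as well, and over all genes edgeR called 0 and DESeq2 called 27 higher and 29 lower. A total of 14 members lay above (4.83% of all genes did) and 6 below (5.75%) all 3 vehicle tumors.

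The authors deposited 2 tables of these tumor groups, and the members' differences are not the same in both. The FPKM columns did not track the normalized columns of the same number (r = -0.14 to 0.33 between deviations from the group means across genes). Columns of different numbers were not compared, so which library each column holds is not known. Of the 14 members above all vehicle tumors in normalized counts, 0 were above them in FPKM, 13 overlapped and Gm16973 was below. Of the 6 below, 5 overlapped and Gm16701 was above. The separations between groups in normalized counts given next were thus absent from the FPKM table.

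Malat1 held 12126, 8021 and 8838 normalized counts in vehicle tumors and 9015, 27371 and 38952 in DRP-104 tumors. DRP-104 tumors 2 and 3 were above all vehicle tumors and tumor 1 among them, and the log2 change of 1.16 ± 0.48 did not pass (adjusted p = 0.916). Neat1 held 12176, 5058 and 10686 in vehicle and 13352, 16228 and 17977 in DRP-104 tumors, and Xist held 7772, 8324 and 7425 and 10413, 12888 and 27428. In these the groups did not overlap, yet neither change passed (0.85 ± 0.32 for Neat1 and 0.98 ± 0.33 for Xist, adjusted p = 0.916 for both). In FPKM, Malat1 held 155, 234 and 181 in vehicle and 101, 162 and 170.4 in DRP-104 tumors, Neat1 44.03, 53.5 and 67.6 and 55.002, 48.3 and 75.2, and Xist 55.1, 54.4 and 41.2 and 20.3, 53.4 and 47.6. All 3 overlapped there, with log2 changes of -0.41 for Malat1, 0.11 for Neat1 and -0.41 for Xist. Single tumors carried part of the differences in normalized counts. Without DRP-104 tumor 3 the change of Xist was 0.56 and that of Malat1 0.72, without DRP-104 tumor 1 that of Malat1 was 1.78, and without vehicle tumor 2 that of Neat1 was 0.46 and that of Gm15834, given next, 0.91.

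The highest differences without overlap between tumor groups were those of Gm15834, Gm15889 and Gm17249. Gm15834 held 18.8, 0.930 and 21.2 in vehicle and 54.5, 29.99 and 34.3 in DRP-104 tumors (2.06 ± 0.96), Gm15889 held 25.02, 17.6 and 13.5 and 36.4, 46.1 and 117 (1.63 ± 0.56), and Gm17249 held 12.5, 6.49 and 8.66 and 18.2, 26.5 and 27.4 (1.31 ± 0.59). The largest differences in the other direction were those of 5033430I15Rik, with 89.4, 74.2 and 58.7 in vehicle and 42.8, 38.1 and 27.4 in DRP-104 tumors (-1.02 ± 0.38), Gm13056 (-0.75 ± 0.37) and Gm16701 (-0.63 ± 0.41). None of these 6 passed the test (adjusted p = 0.916 for each). In FPKM their log2 changes were 0.01, -0.70, 0.02, -0.07, -0.17 and 0.43 in the same order. In the cultures 5033430I15Rik fell without Gln by 0.64 (adjusted p = 0.0235), a call lost without control library 2, Gln-free library 1 or Gln-free library 2 (adjusted p up to 0.0829).

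Of other members named for the cultures, 2610035D17Rik held 265, 294 and 269.5 in vehicle and 338, 344 and 293 in DRP-104 tumors, Pvt1 193, 186 and 167 and 278, 215 and 167, and Kantr 189, 132 and 159 and 294, 173 and 189. Groups overlapped in all 3, with changes of 0.23 ± 0.18, 0.24 ± 0.25 and 0.42 ± 0.28. AU020206, which was below the controls in both culture treatments, held 863, 721 and 923 in vehicle and 1234, 944 and 1321 in DRP-104 tumors, without overlap (0.47 ± 0.18, adjusted p = 0.916), but in FPKM the groups overlapped (32.5, 23.2 and 34.3 against 33.8, 25.2 and 29.6). Trp53cor1 was at 0 in 5 of the 6 tumors, and Gm13073 in all 6.

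Some cell type markers also differed between the tumor groups in normalized counts. They were not summed in FPKM, so whether these differences hold there is not known. The paper stained fibroblast subtypes, a measure of cells and not of RNA, and reported no significant change with DRP-104. The 7 fibroblast markers summed to 39031 to 82817 in vehicle and 18469 to 32268 in DRP-104 tumors, and the 4 endothelial markers to 1662 to 1878 and 998 to 1398, both without overlap. Macrophage markers summed to 6473 to 9062 in vehicle and 4748 to 10356 in DRP-104 tumors, T cell markers to 52.9 to 98.3 and 41.5 to 1306, and epithelial markers to 97999.7 to 139093 and 109688 to 145685. The T cell sum of 1306 was that of DRP-104 tumor 3 alone, beside 80.2 in tumor 1 and 41.5 in tumor 2. DRP-104 tumor 3 also had the highest normalized counts of Malat1, Neat1, Xist and Gm15889. Acinar markers summed to 155 to 2526 and 181 to 988 and islet hormones to 53.6 to 281 and 155 to 647. No fibroblast, endothelial, macrophage or epithelial marker was at 0 in any tumor, and the part of cell composition in the lncRNA values was not tested.

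**Figure D5:**
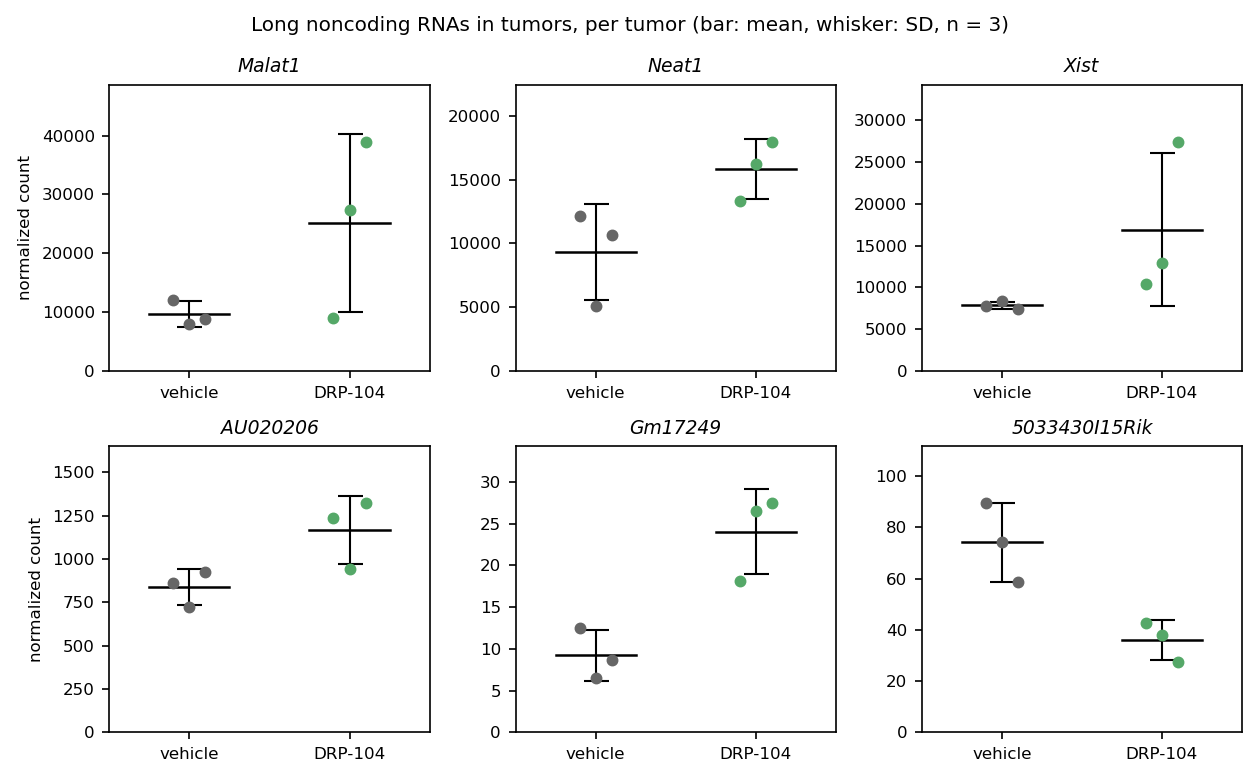
Normalized counts of 6 lncRNAs in each tumor (y axis from 0, bar and whisker the mean and SD of 3 tumors per group). Malat1 was high in DRP-104 tumors 2 and 3 only, while in the other 5 panels the groups do not overlap although no change passed the test and the groups overlap in the FPKM table. Gm17249 passed the filter only through the DRP-104 tumors, so its difference is a description.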

How the data were processed

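RNA-seq libraries of 15 samples (5 groups of 3) were aligned with HISAT2 by a sequencing company, per the study's methods. The submitters' processing notes also name CASAVA, STAR 2.5, DESeq2 and GRCm39. The counter and its strand setting are not given in the sources used here. The authors deposited 3 tables of counts divided by size factors (a normalized signal) and 1 of FPKM with annotation, whose coordinates match GRCm38 (79.4% of genes found in GENCODE M21 have the same start). The control columns carry a vehicle name and were matched to the control group only. The FPKM columns were used by group only, since they did not track the tumor columns of the same number. In all, 0 sample columns were left without a group, and the authors' fold changes and p-values were not used.

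Whole reads were recovered from the normalized values (tolerance 0.0051 normalized counts), and the 9 cultures were scaled together for printed values and for DON against Gln-free cells. Each comparison used limma 3.58.1 (R 4.3.3; lmFit, eBayes with trend) on log2(value + 1) of its 6 libraries, for genes with a mean of at least 10, with Benjamini-Hochberg adjustment and a threshold of 0.05. This scale understates the change of low genes. The fit was checked on simulated counts. The alternatives were quantile normalization, other limits of membership, filters, thresholds and pseudocounts (0.5, 10), edgeR 4.0.16 and DESeq2 1.42.0 run on the reads, a replicate block, leaving out each library, and the FPKM table for tumors. Intervals on reads cover counting error only and take the reads as independent counts.

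The members, role lists and marker lists were chosen with earlier results of these data known. Named are the 10 members with the highest mean, the 5 largest rises and falls of each culture comparison (mean of at least 100, no overlap), the 3 of the tumors (no overlap), members of the role lists, those with opposite changes of at least 1 on the log2 scale in both treatments (no overlap), the 2 nearest each side of the limit of 20, and coding genes that overlap them or start divergently. Promoters and microRNAs are from RefSeq (GRCm38.p6).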

Additional observations from a re-analysis of the deposited data

How the results depend on the processing

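Of 77 lncRNAs called without Gln (49 higher, 28 lower), 43 (31 and 12) were called when only genes with a mean of at least 50 were tested, 44 (31 and 13) when members needed a mean of at least 50, and 36 (21 and 15) when they needed a control mean of at least 40. These 3 alternatives hold fewer lncRNAs. With no filter the lower calls were 17 and at a threshold of 0.01 they were 15, and leaving out single libraries gave 61 to 72 calls (41 to 52 higher and 17 to 23 lower), with 18 lower calls without control library 1 and 17 without Gln-free library 1. Between DON and Gln-free cells the 98 calls (71 higher, 27 lower) became 63 (40 higher) with tested genes at a mean of at least 50, 56 (40 and 16) with membership at 50 and 47 (28 higher) with a control mean of at least 40, and 89 to 95 (63 to 68 higher, 24 to 28 lower) without single libraries. For DON against control the 100 values past the threshold (84 and 16) became 57 (48 and 9) under either limit of 50, 47 (34 higher) with a control mean of at least 40, and 89 to 98 (74 to 83 higher, 15 to 16 lower) without single libraries, and 25 were lower with membership at 10. In tumors the count was 0 under every alternative run. The FPKM table of the tumors turned the direction of Malat1 (-0.41) and Xist (-0.41), and neither table gave a call. Quantile normalization moved the median of all genes after DON from 0.02 to 0.13. Without single libraries the log2 change of 2610035D17Rik after DON ran from -0.066 (without control library 1, and -0.0086 without DON library 1) to 0.17, and that of Gm10516 from -0.61 to 0.12 (without DON library 2). Of the values of single named lncRNAs under the alternatives, 44 lost and 3 gained a call without Gln, and 4 lost and 2 gained one between DON and Gln-free cells. Apart from the smaller lists, the cause was not tested.

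Libraries with the same replicate number did not deviate together (correlations of -0.03 to 0.08 across genes in the cultures and -0.36 to 0.04 in the tumors), so no pairing by number was visible. These correlations cannot show whether samples of the same number were handled together, and the labels do not say. With a replicate block the calls were 47 higher and 21 lower without Gln, 68 and 27 between DON and Gln-free cells, 86 and 16 after DON, and 0 in tumors. B230354K17Rik passed without Gln under the replicate block (adjusted p = 0.0295).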
